A study of Mus musculus with 2 samples.

Results

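Gas5, Snhg1, Snhg3, Snhg5, Snhg6, Snhg8, Snhg11, Snhg12 and Snhg15, 9 host genes of small nucleolar RNAs (snoRNAs), were described in total RNA of mouse hippocampus. Each symbol matched 1 gene of the deposited transcript tables, which gave 9 of 55536 annotated genes, with 81 annotated transcripts. The RNA came from female B6CASTF1/J mice at 25 days of age, offspring of a cross between C57BL/6 and CAST, a strain derived from wild mice, and the labels name no treatment or engineered allele. There was 1 group of 2 libraries, biological replicates 1 and 2, with 300 ng of starting RNA each and added ERCC spike-ins. The replicates have separate biosamples and the same donor entry, so the spread given here is that between these 2 samples and may be partly technical. The gene table of replicate 1 summed to 34919989 expected counts and that of replicate 2 to 41206890. The tissue is labelled a layer of hippocampus, and all 10 markers of hippocampal neurons were present, at 30.7 to 1577 TPM (a level per unit of transcript length, on a scale whose total is the same in each library). Markers of interneurons, glia, endothelium and neighbouring tissue were also present, and all 33 markers checked were above 1 TPM in both libraries, so the RNA is of mixed cells. Levels are mean ± SD over the 2 libraries (n = 2), coordinates are on mm10, and with a single group there is no test between groups.

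SnoRNAs are short nuclear RNAs that guide chemical modification of ribosomal and spliceosomal RNA. Box C/D snoRNAs direct ribose methylation by fibrillarin, and box H/ACA snoRNAs direct the change of uridine to pseudouridine by dyskerin. In mammals most are cut out of introns of a host gene after splicing. In the noncoding hosts the introns hold the guide RNAs, while the spliced exons carry no conserved long reading frame and many of them are degraded by nonsense-mediated decay, a pathway coupled to translation. Gas5 is the best known of them, first found as a transcript that accumulates in growth-arrested cells. Snhg11 is known for its expression in neurons.

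The 9 hosts spanned nearly 2 orders of magnitude, with Snhg11 and Gas5 far above the other 7. Snhg11 (ENSMUSG00000044349.15, chr2:158375638-158386145, plus strand) had 205.8 TPM in replicate 1 and 127.9 in replicate 2, a mean of 166.8 ± 55.0. Gas5 (ENSMUSG00000053332.13, chr1:161034422-161038539, plus strand) was at 98.9 and 91.6 TPM, a mean of 95.3 ± 5.16. The lower Snhg11 library was still above the higher Gas5 library. Together the 9 genes summed to 394 and 304 TPM, of which Snhg11 made up 52.2% and 42% and Gas5 25.1% and 30.1%. Annotated as protein-coding in GENCODE M21, Snhg11 stood below 467 of the 55536 genes in mean TPM. Among 646 genes of long noncoding classes with at least 1 TPM in both libraries, Gas5 ranked 13 by mean TPM, Snhg12 39 and Snhg15 336.

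Below them lay a group of 6 genes between about 9 and 20 TPM, close to one another. Snhg12 (ENSMUSG00000086290.9, chr4:132308623-132311024, plus strand) was at 20.2 and 19.2 TPM, a mean of 19.7 ± 0.721. Snhg8 (ENSMUSG00000104960.1, chr3:123507552-123508404, minus strand), the shortest of the 9 genes, was at 19.6 and 16.4 TPM, a mean of 18.0 ± 2.30. Snhg12 and Snhg8 overlapped in range and were not separated. Snhg6 (ENSMUSG00000098234.7, chr1:9941959-9944118, minus strand) was at 13.3 and 13.7 TPM, a mean of 13.5 ± 0.276. Snhg5 (ENSMUSG00000097195.9, chr9:88521050-88522929, minus strand) was at 12.5 and 13.7 TPM, a mean of 13.1 ± 0.884. Snhg6 and Snhg5 also overlapped and were not separated. Snhg1 (ENSMUSG00000108414.1, chr19:8723475-8726443, plus strand) was at 10.4 TPM in both libraries, with SD 0.0566. Snhg3 (ENSMUSG00000085241.7, chr4:132348014-132353686, minus strand) was at 10.3 and 9.07 TPM, a mean of 9.70 ± 0.884. Snhg8 against Snhg6, Snhg5 against Snhg1 and Snhg1 against Snhg3 did not overlap between libraries, but the intervals printed in the deposited gene table did in both libraries for the last 2 of these pairs. For Snhg8 against Snhg6 they overlapped in replicate 2, and in replicate 1 they did not, at 16.4 to 22.3 against 11.1 to 15.7 TPM. Snhg1 lay under its own interval in replicate 1, which ran from 10.68 to 15.5 TPM.

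Snhg15 (ENSMUSG00000085156.7, chr11:6525591-6528760, minus strand) was the lowest of the 9, at 2.96 and 2.20 TPM, a mean of 2.58 ± 0.537. It had 38.0 and 34.6 expected counts, and both its libraries lay below both libraries of Snhg3. Snhg11 stood at the other end of depth, with 25094 and 18363 expected counts, which were 90.01% and 85.6% of all counts in the 9 genes. Counts, unlike TPM, grow with transcript length, and its leading transcript is 5864 bases long. Gas5 had 1538 and 1672 counts, and the other 7 genes had 34.6 to 401 per library.

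**Figure D1:**
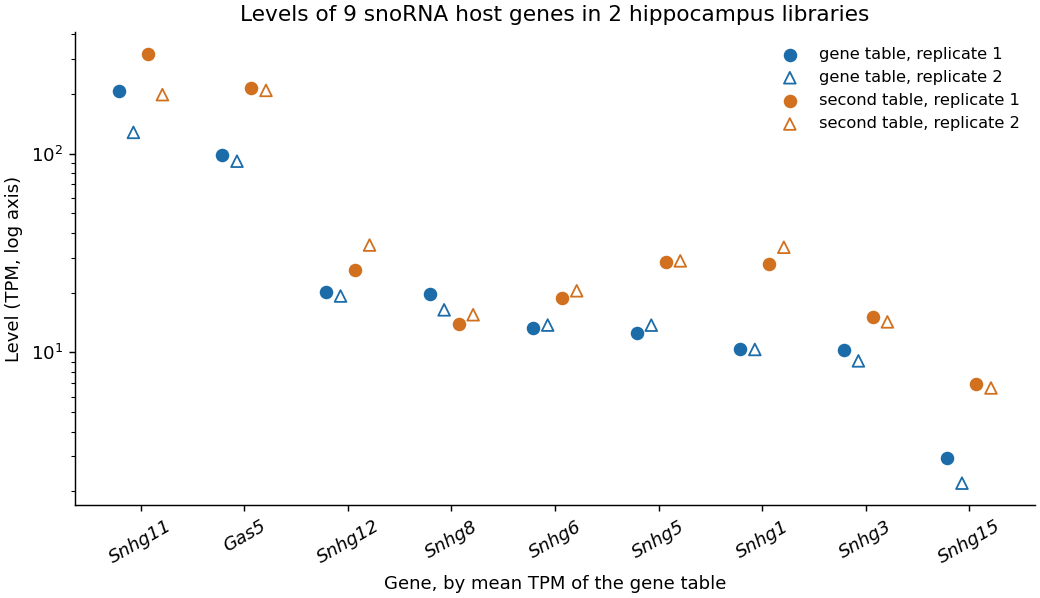
Level of each host gene in TPM (log axis) in replicate 1 (filled circles) and replicate 2 (open triangles), from the gene table (blue) and summed over transcripts of the second table (orange). Snhg11 and Gas5 are above 90 TPM in every value and the other 7 are at or below 34.7 TPM.

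The second deposited quantification, made from reads and here summed over each gene's transcripts, kept Snhg11 and Gas5 at the top and Snhg15 at the bottom. It gave Snhg11 318 and 198 TPM and Gas5 213 and 208 TPM, so that Gas5 was the higher of this pair in replicate 2. Nuclear protein-coding genes took 43.4% and 42% of TPM in the gene table and 73.5% and 74.0% in the second table, so the 2 tables differ in make-up and their raw TPM values are not directly comparable. With TPM rescaled so that nuclear protein-coding genes have the total of a full TPM table, Gas5 was at 228 and 218 in the gene table and 290 and 281 in the second table. The sharpest disagreements were Snhg8, at 45.2 and 39.0 against 19.0 and 20.9, and Snhg1, at 24.0 and 24.7 against 38.0 and 45.7. The order among the 6 middle genes therefore depends on the quantification.

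The snoRNAs themselves were looked for inside the hosts. On the same strand and wholly within the 9 genes, GENCODE M21 has 32 snoRNA genes at 30 positions, since Snord80 in Gas5 and Snora16a in Snhg12 each have a pair of overlapping entries. Gas5 holds 10 of the 32 and Snhg1 8. Snhg12 has 5, while Snhg3, Snhg5 and Snhg11 have 2 each, and Snhg6, Snhg8 and Snhg15 have 1 each. For each host, the snoRNA gene with the most counts is printed here (the first in the direction of transcription where all were at 0), to show the box elements that divide the hosts into C/D and H/ACA carriers. Capitals mark TGATGA (box C) within the first 25 bases, CTGA (box D) within the last 15, and ACA within the last 6, all read on the transcribed strand.
Gm26224, Gas5, chr1:161035394-161035473, plus strand: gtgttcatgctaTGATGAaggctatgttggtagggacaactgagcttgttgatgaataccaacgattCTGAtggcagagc
Snord22, Snhg1, chr19:8725866-8725991, plus strand: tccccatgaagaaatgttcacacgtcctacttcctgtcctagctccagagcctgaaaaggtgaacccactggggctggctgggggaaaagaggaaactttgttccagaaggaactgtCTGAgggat
Snord50b, Snhg5, chr9:88521797-88521868, minus strand: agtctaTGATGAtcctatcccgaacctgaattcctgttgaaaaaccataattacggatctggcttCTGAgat
Snord87, Snhg6, chr1:9942463-9942549, minus strand: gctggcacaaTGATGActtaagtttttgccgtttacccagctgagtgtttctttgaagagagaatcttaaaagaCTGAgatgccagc
Snora73b, Snhg3, chr4:132352322-132352526, minus strand: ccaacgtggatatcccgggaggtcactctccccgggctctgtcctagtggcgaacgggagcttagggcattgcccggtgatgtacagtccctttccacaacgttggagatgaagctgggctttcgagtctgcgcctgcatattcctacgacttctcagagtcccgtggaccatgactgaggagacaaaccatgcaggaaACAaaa
Snora24, Snhg8, chr3:123507937-123508066, minus strand: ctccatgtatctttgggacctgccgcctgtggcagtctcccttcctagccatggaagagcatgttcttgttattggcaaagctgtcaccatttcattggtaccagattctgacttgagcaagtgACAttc
Gm25129, Snhg11, chr2:158379534-158379666, plus strand: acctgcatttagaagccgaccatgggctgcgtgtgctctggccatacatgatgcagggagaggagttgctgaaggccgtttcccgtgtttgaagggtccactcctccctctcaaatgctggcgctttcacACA
Snora44, Snhg12, chr4:132309941-132310069, plus strand: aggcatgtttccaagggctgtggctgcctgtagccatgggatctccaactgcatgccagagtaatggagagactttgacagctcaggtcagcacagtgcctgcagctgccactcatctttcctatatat
Snora9, Snhg15, chr11:6528033-6528165, minus strand: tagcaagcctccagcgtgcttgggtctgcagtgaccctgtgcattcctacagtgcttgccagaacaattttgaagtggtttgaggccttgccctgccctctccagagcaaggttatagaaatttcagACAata

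The box letters split the hosts by kind. Both box C and box D were found in 18 of the 32, namely 8 in Gas5, 6 in Snhg1, 2 in Snhg5 and 1 each in Snhg6 and Snhg12, and these were 60 to 87 bases long. Another 4, 2 in Gas5 and 2 in Snhg1 (Snord22 among them), had box D alone. The ACA triplet stood at the end of 9, in Snhg3, Snhg8, Snhg11, Snhg12 and Snhg15, and these were 130 to 205 bases long. Snora44, in Snhg12, had none of the 3 in these windows. So by these letters Gas5, Snhg1, Snhg5 and Snhg6 carried only C/D-type genes, and Snhg3, Snhg8, Snhg11 and Snhg15 only ACA-type genes. Snhg12 carried both.

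**Figure D2:**
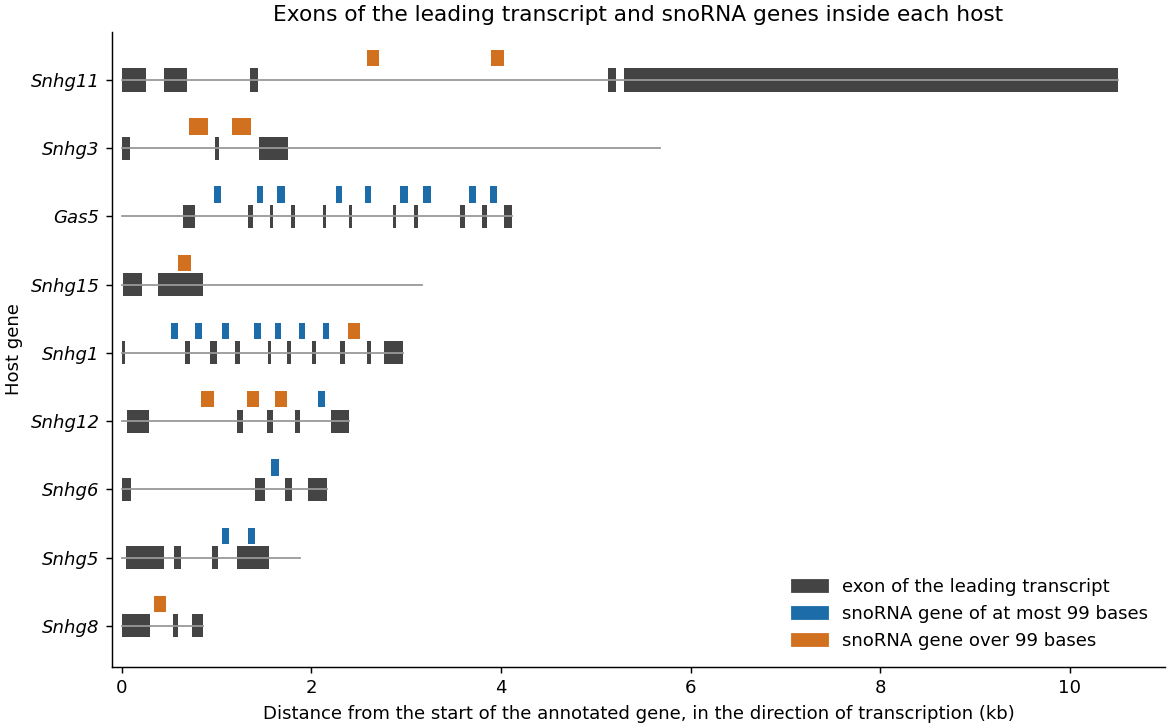
Each host from the start of its annotated gene in the direction of transcription (kb), with exons of its leading transcript (grey) and the snoRNA genes inside it, coloured by length (blue at most 99 bases, orange over 99 bases). Gas5 and Snhg1 show small exons alternating with snoRNA genes, Snhg11 has both of its snoRNA genes in 1 intron, and the snoRNA gene of Snhg15 and 1 of the 2 in Snhg5 fall in exons of the leading transcripts.

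Intron by intron, the snoRNA genes sat mostly alone. Taking for each the smallest annotated intron of its host around it, the 32 entries lay in 29 introns, and the entries sharing one were the 2 overlapping pairs and the 2 genes in Snhg11. The C/D-type genes of the hosts lay a median of 74 bases before the 3′ splice site, and 14 of 18 lay 60 to 90 bases before it. Over all 184 annotated intronic snoRNA genes with both boxes, these hosts included, the median was 377 bases. Of these 184, 49 (26.6%) lay 60 to 90 bases before the splice site, 14 of them in the hosts. So this distance is not particular to the hosts. The wider set includes a series of entries of 94 bases in long introns, among them Snord116l11, 180591 bases before its splice site. The part of this series in the median of 377 was not tested. Snora73a and Snora73b lay 76 and 78 bases before their 3′ splice sites, whereas Gm25129 and Snora9 lay 1104 and 1595 bases before theirs.

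What the counts can show of these snoRNAs depends on length. In the gene table, effective length was 99 bases below length, so a gene of at most 99 bases has effective length 0 and cannot receive counts. Of all 1558 snoRNA genes, the 462 of this size had 0 counts, and 21 of the 32 inside the hosts are among them, including all 18 with both boxes. For these the 0 says nothing about the RNA. Of the 11 longer ones inside the hosts, 8 had counts, and 6 had at least 3 counts in both libraries. Among all 1096 longer snoRNA genes, 170 had counts and 77 had at least 3 in both. In the second table all 32 are listed at 0. There, 2 of the 1096 longer snoRNA genes and 0 of the 462 shorter ones had counts, so this 0 is not particular to the hosts.

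The snoRNAs that were counted were led by those of Snhg3, which are required for early processing of ribosomal RNA. Snora73b had 863 and 1535 counts, or 338 and 482 TPM, and Snora73a had 714 and 1169 counts, or 280 and 367 TPM. Each exceeded the counts of the host itself: Snhg3 had 95.2 and 109 counts, so Snora73b had 9.07 and 14.0 times as many counts, and Snora73a 7.50 and 10.69 times. Over an alignment of 205 bases the pair are 96.6% identical, so reads may be split between them and their separate values are uncertain. Neither lies in an exon of a Snhg3 transcript, so their sequence is not part of an annotated Snhg3 transcript. Both lie in introns of Snhg3 and within the span of Rcc1 on the same strand. Whether some of their reads came from unspliced RNA of either gene was not tested. Snord22 followed with 34.2 and 61.2 counts (52.6 and 75.4 TPM), Snora44 with 24.8 and 36.1 counts and Gm25129 with 12 and 14 counts. Snord22 and Snora44 lie in exons of some transcripts of their own hosts, Snhg1 and Snhg12, so their reads and the host's cannot be fully told apart. Snora9 had 4.02 and 5.38 counts, Snora24 1.32 and 0.85, and Snora61, in Snhg12, 0 and 3.55.

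**Figure D3:**
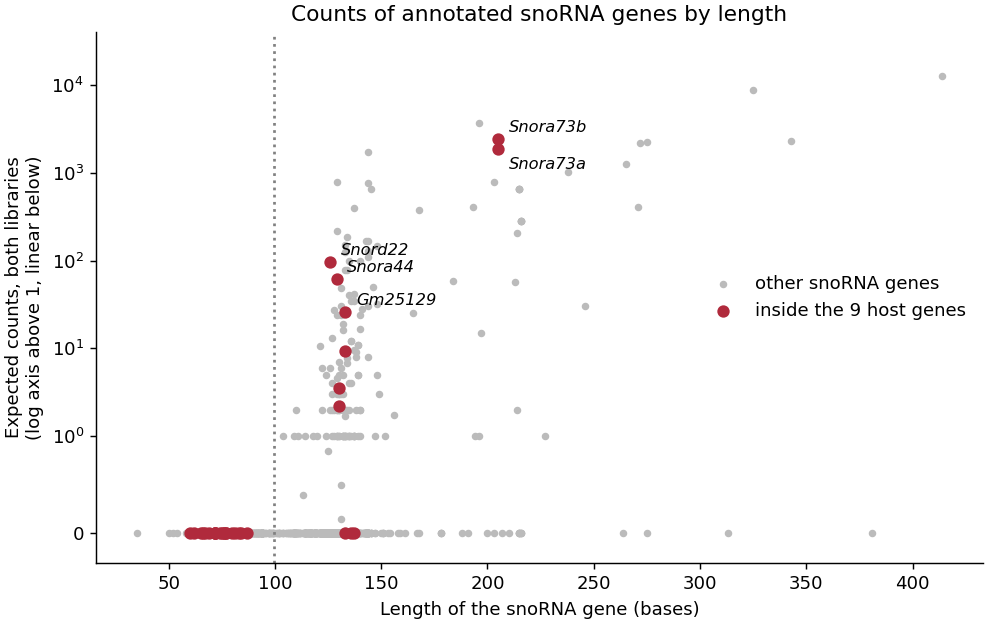
Expected counts summed over both libraries (log axis above 1, linear below) against length in bases for each annotated snoRNA gene, with those inside the 9 hosts in red. Left of the dotted line, at 99 bases and under, every gene is at 0, and Snora73b and Snora73a are the highest of the red points.

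The libraries were then compared by the ratio of replicate 2 to replicate 1 in TPM, with an exact Clopper-Pearson 95% interval that covers counting error only. Of the 9 hosts, 8 had at least 200 counts over both libraries. None of the 8 differed by 2-fold or more, against 107 of 12962 genes tested (0.825%) in either direction. Snhg11 stood apart: its ratio was 0.62, with an interval of 0.61 to 0.63. It was the only one of the 8 past 1.5-fold, a size that 431 of the 12962 genes (3.33%) reached in the same direction. A ratio as low as that of Snhg11 was found in 2.29% of the tested genes. Its ratio lay between 0.54 and 0.64 under all 6 scalings tried, including spike-ins and the second table. In tissue RNA, fewer cells of a type and less of the RNA per cell cannot be told apart.

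The other hosts were near equality. Gas5 had a ratio of 0.93 (0.86 to 0.99) and was below 1 under all 6 scalings, as was Snhg3, with 0.88 (0.66 to 1.17). Snhg12 had 0.95 (0.82 to 1.10), Snhg8 0.83 (0.67 to 1.03) and Snhg1 0.99 (0.82 to 1.20). Snhg6 had 1.03 (0.81 to 1.30) and Snhg5 1.10 (0.93 to 1.30). For Snhg1, Snhg5, Snhg6, Snhg8 and Snhg12 the side of 1 changed with the scaling, and apart from Snhg11 and Gas5 each interval of the 8 included 1. Snhg15, under the count minimum, had 0.74 with an interval of 0.46 to 1.21. The median log2 ratio of the 8 was -0.09, beside -0.07 over the 12962 genes. By gene-table TPM, 6 of the 8 were lower in replicate 2, as were 64.9% of all tested genes. Leaving out Snhg11, the hosts summed to 188 and 176 TPM, a mean of 182 ± 8.50.

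**Figure D4:**
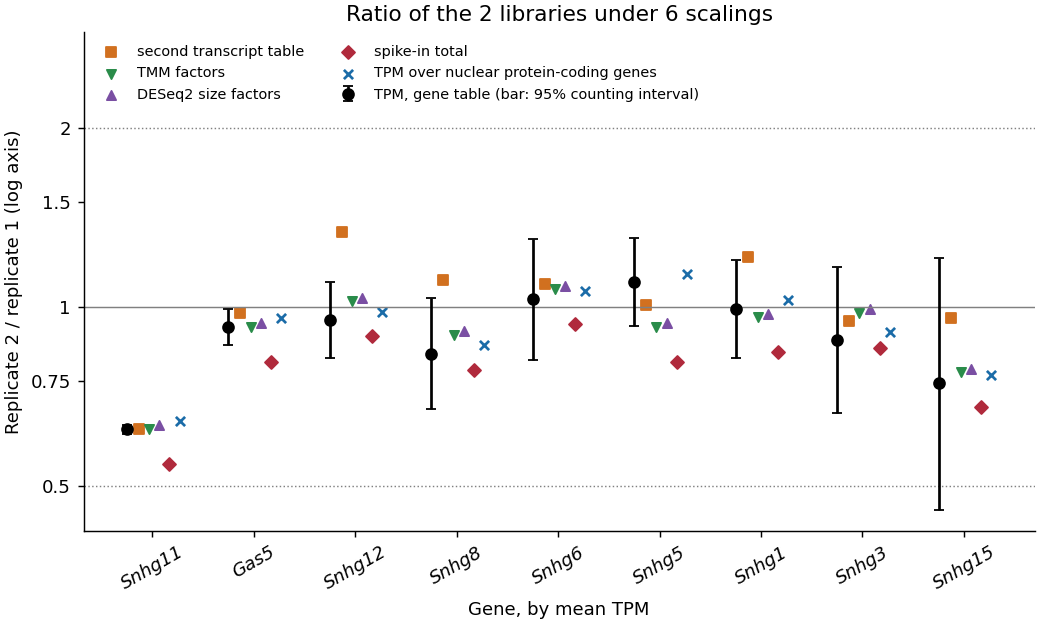
Ratio of replicate 2 to replicate 1 for each host (log axis) from gene-table TPM with its 95% counting interval (black), and from 5 other scalings (coloured), with dotted lines at 2-fold. Snhg11 lies at 0.54 to 0.64 in every scaling, Gas5, Snhg3 and Snhg15 are also below 1 in each, and the other 5 lie on both sides of 1.

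Beside the lower Snhg11, markers of neighbouring tissue summed to 52.2 TPM in replicate 1 and 78.3 in replicate 2, with all 7 above 1 TPM in both and Ttr, the transthyretin gene of choroid plexus, at 23.5 and 55.1. The higher sum came from Ttr, and the other 6 summed to 28.7 and 23.2 TPM. Markers of hippocampal neurons summed to 2694 and 2431 TPM. Other long noncoding RNAs were also lower in replicate 2: all 10 of the 11 listed that were matched had TPM ratios below 1 (9 of 10 with the second table or DESeq2 size factors), with a median log2 ratio of -0.66. Past 1.5-fold lower were 6 of the 10, and 3 to 7 under the other scalings. Malat1, an abundant nuclear RNA, was at 5613 and 3254 TPM, and Meg3, a maternally expressed imprinted RNA, at 1075 and 606 TPM. The part of any of these in the ratio of Snhg11 was not tested.

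The 2 snoRNAs with the most counts went the other way. Snora73b was higher in replicate 2 with a ratio of 1.42 (1.31 to 1.55) and Snora73a with 1.31 (1.19 to 1.44), while their host Snhg3 was at 0.88. In TPM, both intervals lie above that of Snhg3, which ends at 1.17. Scaled by counts or by protein-coding TPM, Snora73b was at 1.32 to 1.53 and Snora73a at 1.22 to 1.41, the lowest with spike-ins. Snhg3 was at 0.85 to 0.99 under the same scalings. Intervals under these scalings were not computed, so whether they separate the snoRNAs from Snhg3 is not known. TPM summed over all annotated snoRNA genes was 7574 and 8806, a ratio of 1.16. In counts the ratio was 1.41, beside 1.18 for all counts of the libraries. Higher counts in replicate 2 were not particular to the Snora73 pair. Among other long snoRNA genes, Snord17 had 323 and 694 counts and Scarna10 3576 and 5324, while Gm22009 had 1237 and 1088. The part of this wider difference in the Snora73 values was not tested. Snord22 had a ratio of 1.43 (0.93 to 2.25), Snora44 1.17 (0.68 to 2.03) and Gm25129 0.93 (0.40 to 2.21), none of them separable from 1 at these counts, which are under 200 over both libraries.

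By transcript type, lincRNA and protein-coding transcripts made up most of the summed TPM of the 9 genes. Protein-coding transcripts, which means Snhg11-201 alone, took 43.9% and 32.9%, and the lincRNA type 32.6% and 40.8%. Transcripts annotated as retained introns took 16.6% and 17.7%, those annotated as targets of nonsense-mediated decay 3.40% and 4.86%, and the processed transcript type 3.37% and 3.71%. The decay type was found in Snhg11 only, where Snhg11-205 was at 9.49 and 8.33 TPM and Snhg11-203 at 3.92 and 6.46 TPM. In the second table the decay type took 1.49% and 1.70% of the 9 genes, and Snhg11-203 was at or near 0 in both libraries. None of the transcripts of the other 8 genes has the decay label in the annotation, so this share does not measure decay in them. Retained-intron transcripts were annotated in 5 genes, Gas5, Snhg1, Snhg5, Snhg8 and Snhg11.

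Within genes, the retained-intron share differed widely. It was 45.3% and 59.9% of TPM in Snhg5, 49.3% and 43.2% in Snhg1, 35.1% and 29.7% in Gas5, 9.32% and 10.2% in Snhg11 and 4.43% and 5.44% in Snhg8. The second table gave higher shares for Snhg1, at 65.4% in both libraries, and Snhg8, at 16.5% and 12.1%. It gave lower ones for Gas5, at 27.0% and 21.8%, and Snhg11, at 4.86% and 5.74%, and 49.4% and 58.7% for Snhg5. Snhg6 and Snhg12 had lincRNA transcripts only, and Snhg3 and Snhg15 processed transcripts only. A type name need not describe what the exon holds: in Snhg12, lincRNA-type transcripts whose exons contain a whole snoRNA gene took 49.4% and 36.8% of its TPM, and in Snhg15 the like share was 44.9% and 31.7%. Over the 9 genes, transcripts with a snoRNA gene inside an exon took 13.0% and 13.4% of TPM. They took 29.4% and 44.2% in Snhg5, 24.6% and 20.8% in Gas5, 31.6% and 20.7% in Snhg1, and 3.76% and 3.85% in Snhg11. The second table put these shares at 64.2% and 65.4% in Snhg1, 59.7% and 67.0% in Snhg12, and 15.9% and 19.2% over the 9 genes.

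**Figure D5:**
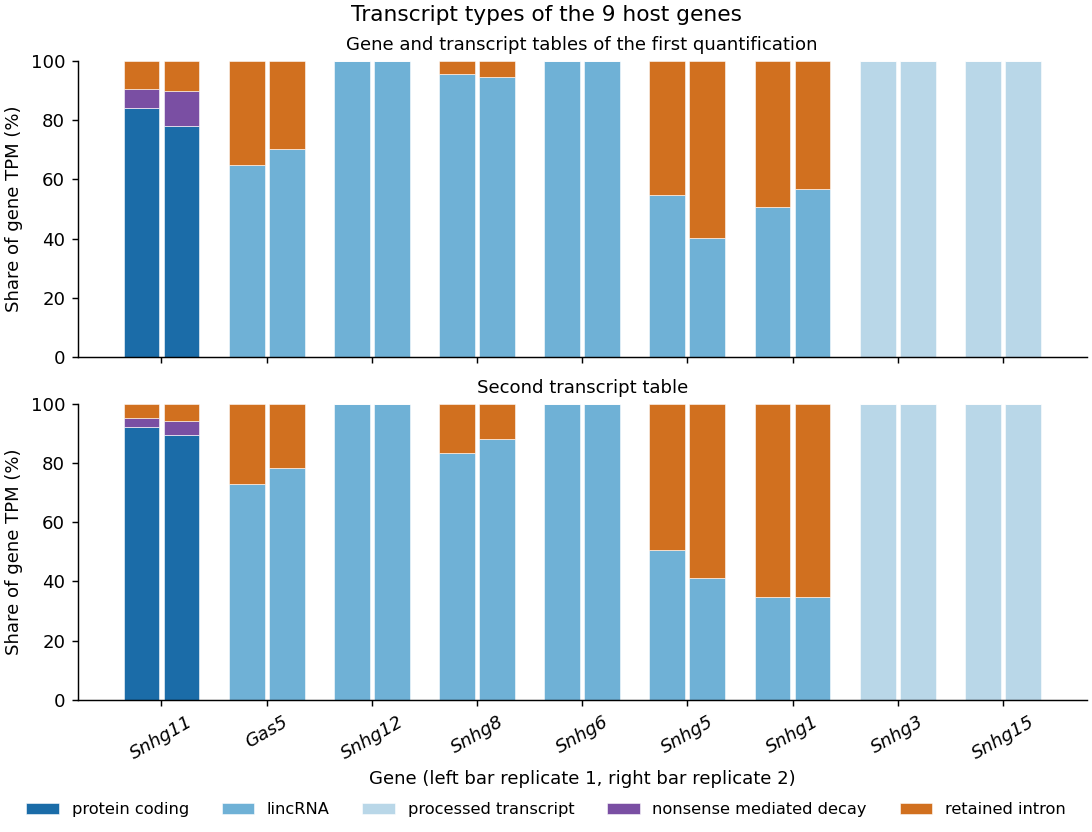
Share of each gene's TPM (%) by annotated transcript type, replicate 1 on the left and replicate 2 on the right of each pair of bars, for both quantifications. Retained-intron transcripts are a larger part of Snhg5, Snhg1 and Gas5 than of Snhg8 and Snhg11 in both panels.

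The transcript that led each gene was the same in both quantifications for only 4 of 9 genes. Snhg11-201, with 5 exons, took 84.2% and 78.2% of Snhg11 and 92.0% and 89.4% in the second table. Its level was 173 TPM in one library, replicate 1, and 100.04 in the other, so the lower Snhg11 level was carried mainly by this transcript. Snhg8-201 took 95.6% and 92.8% of Snhg8. Snhg12-206 took 50.6% and 63.2% of Snhg12, and 40.3% and 33.0% in the second table. Snhg15-203 led Snhg15 at 45.0% and 31.8%, but Snhg15-202 led in replicate 2 with 37.6%. The pair had only 12.1 and 12.5 counts in that library.

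For the other 5 genes the 2 methods named different leaders. Gas5-210, an 11-exon transcript of 557 bases, took 40.9% and 52.7% of Gas5, and Gas5-224 23.2% and 17.2%. The second table divided Gas5 almost evenly between Gas5-210, with 35.3% and 38.0%, and Gas5-203, with 35.6% and 39.7%, while the first gave Gas5-203 0.32% and 0.27%. In Snhg1 the first put Snhg1-211, a 10-exon lincRNA, ahead with 48.4% and 51.1%, and the second put the retained-intron transcript Snhg1-213 ahead with 47.7% and 52.4%, which the first lists at 0. Snhg6-203 led Snhg6 with 70.0% and 70.5% in the first and Snhg6-205 with 69.4% and 57.8% in the second. In Snhg3 the first divided TPM between Snhg3-204, with 54.1% and 28.6%, and Snhg3-202, with 31.2% and 48.3%, and the second gave Snhg3-202 all of it. Gene levels in TPM rest on this division too, through the effective length of the gene. How far they do was not tested.

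In Snhg5, transcripts moved between libraries while TPM of the gene stayed near level, at a ratio of 1.10. Its effective length was 887 bases in replicate 1 and 703 in replicate 2. In counts scaled by TMM, DESeq2 or spike-ins the ratio was 0.93, 0.94 or 0.81. By mean share the leader of Snhg5 was the retained-intron transcript Snhg5-204, with 25.7% and 38.5%. In replicate 1 the lincRNA Snhg5-201 led instead, with 51.5%, against 9.47% in replicate 2. The second table had Snhg5-203 as leader, with 24.9% and 25.3%. Snhg5-201 had 6.42 TPM in replicate 1 and 1.30 in replicate 2, and Snhg5-203 was listed at 0 in replicate 1 and at 4.0 TPM in replicate 2. The deposited intervals for Snhg5-201, 3.74 to 7.52 TPM in replicate 1 and at most 2.59 in replicate 2, do not overlap, whereas those of Snhg5-203, at most 1.68 and 1.43 to 5.64 TPM, do. The second table gave Snhg5-203 7.14 and 7.30 TPM, with no such change, and Snhg5-201 6.41 and 3.61. In Snhg12 the methods went opposite ways for Snhg12-207, with 3.46 and 1.17 TPM in the first and 1.78 and 10.5 in the second.

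Several other transcripts held at least 10% of their gene in at least 1 quantification. In Snhg1 these were the lincRNA Snhg1-207, with 27.0% and 22.3% in the second table and 0 in the first, and the retained-intron transcripts Snhg1-215, with 11.8% and 10.5%, and Snhg1-206, with 10.6% and 15.3%, in the first. Snhg1-215 has only 2 exons, and they contain 7 of the 8 snoRNA genes of Snhg1. In Snhg12, Snhg12-204 had 25.6% and 18.0% in the second table against 8.32% and 4.37% in the first, and its exons contain 3 snoRNA genes. Snhg12-210, with 2 snoRNA genes in its exons, had 17.8% and 13.2% in the second table. In Snhg8 the unspliced Snhg8-202, which contains Snora24, had 16.5% and 12.1% in the second table and 4.42% and 5.45% in the first. Snhg3-201 had 14.8% and 16.7%, Snhg6-204 11.01% and 12.5% and Snhg5-206 16.0% and 15.7% in the first. Snhg5-206 was above 10% in the second table too, at 10.5% and 12.1%. Snhg5-205 had 23.8% and 24.5%, and Snhg6-201 14.8% and 13.2%, in the second. Snhg15-204 had 25.4% and 30.6% in the first, and in the second 29.0% in replicate 1 and 0 in replicate 2.

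Overlap with other genes limits a few of these values. Of the exon bases of Snhg3, 135 of 986 are shared with exons of Rcc1, a neighbouring gene for a nuclear exchange factor on the same strand, so reads there cannot be assigned to 1 gene. Rcc1 was at 4.93 and 4.52 TPM. On the opposite strand, 705 of the 986 exon bases of Snhg3 overlap exons of Gm17300, listed at 0. Of the 1146 exon bases of Snhg6, 127 overlap exons of Mcmdc2, at 0.86 and 0.46 TPM. The span of Gas5 overlaps that of Zbtb37, at 8.57 and 6.11 TPM, but the 2 share 0 exon bases. The labels describe the spike-ins as those for stranded libraries, and whether the counting used strand is not given in the sources used here. Snhg12 and Snhg3 lie 37.0 kb apart on chromosome 4.

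Other genes of the same pathways were taken from lists. Of 13 other noncoding snoRNA hosts, 10 symbols matched and 8 had at least 1 TPM in both libraries. Snhg14, the long host in the imprinted Prader-Willi region, was far above the rest at 612 ± 122 TPM, Zfas1 was at 21.4 ± 0.608 and Snhg20 at 15.3 ± 1.30. Of the 10 matched hosts in this list, only Snhg14 exceeded Snhg11 and Gas5 in mean TPM. The 32 protein-coding snoRNA hosts, mainly genes for ribosomal proteins and translation factors, were all above 1 TPM, with a median of 149 TPM. Hspa8, a chaperone, was at 991 ± 16.7 TPM, Tpt1 at 422 ± 4.73 and Eef2, a translation elongation factor, at 386 ± 4.01. None of these 10 and 32 genes was past 2-fold between the libraries among the 5 and 32 with enough counts, and their median log2 ratios were -0.17 and 0.05, the latter -0.06 with spike-ins.

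The machinery that handles the products was present. All 18 genes for snoRNA-bound proteins and their assembly factors had at least 1 TPM in both libraries, with a median of 17.0 TPM. Nop56 and Nop58, core proteins of box C/D particles, were at 57.0 ± 6.73 and 24.4 ± 0.721 TPM, and Snu13, which binds the C/D motif first, at 42.2 ± 0.219. The 14 nonsense-mediated decay factors had a median of 18.0 TPM, with Eif4a3, of the exon junction complex, at 37.9 ± 0.912 and the kinase gene Smg1 at 29.2 ± 6.70. Past 2-fold were 0 of the 18 and 0 of the 14, and the median log2 ratios were 0.00 (-0.09 to 0.12 under the other scalings) and -0.19. Rian, a noncoding RNA that also hosts C/D snoRNAs, was at 412 ± 52.4 TPM.

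The promoters were read because hosts of this kind are known for start sites within a run of pyrimidines (C or T), a feature they share with genes for ribosomal proteins. RefSeq sequences on GRCm38.p6 were found for 8 of the 9, Snhg6 being the one not matched, and where Gas5 had more than 1 the entry nearest its leading transcript was used. A pyrimidine run of at least 5 bases that covers the start or begins within 5 bases of it was found in 5 of the 8 and in 23.6% of all 32851 promoters. It began with C in 2 of the 8, Gas5 and Snhg3, and in 13.2% of all. TATAAA, beginning 20 to 40 bases before the start on the transcribed strand, was found in 2 of the 8, Snhg5 and Snhg8, and in 1.99% of all. CACGTG, which reads the same on both strands, was found anywhere in the 300 bases of 1 of the 8, Snhg15, and in 7.15% of all. The promoters with a C-first run or with TATAAA are printed from 60 bases before the start to 20 after it, with TATAAA and any pyrimidine run of at least 5 bases at the start in capitals. Snhg5 has no run of that length at its RefSeq start, but the printed run ttctttt further downstream covers the annotated start of its leading transcript.
Gas5, chr1:161035106-161035185, plus strand: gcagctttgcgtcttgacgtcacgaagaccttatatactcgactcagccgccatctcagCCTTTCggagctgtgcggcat
Snhg3, chr4:132353667-132353746, minus strand: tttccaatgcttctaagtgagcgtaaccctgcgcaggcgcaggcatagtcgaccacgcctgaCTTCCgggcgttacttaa
Snhg5, chr9:88522878-88522957, minus strand: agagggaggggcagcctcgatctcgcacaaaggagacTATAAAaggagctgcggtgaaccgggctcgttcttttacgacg
Snhg8, chr3:123508317-123508396, minus strand: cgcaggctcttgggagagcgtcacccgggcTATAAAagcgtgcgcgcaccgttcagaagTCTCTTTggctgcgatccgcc

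The starts used lie 99 bases downstream of the annotated start of the leading transcript for Gas5 and 68 bases downstream for Snhg8, 9 bases upstream for Snhg5, and at the same base for Snhg3. Gas5 has the run CCTTTC, from the base before the RefSeq start, and Snhg8 the run TCTCTTT from the same position. The 2 hosts with a C-first run lay far apart in level, Gas5 at 95.3 TPM and Snhg3 at 9.70. These are matches of letters, with no measure here of where transcription began.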

How the data were processed

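Ribosomal-RNA-reduced total RNA of 2 hippocampus libraries was used as quantified by the authors, per the labels and deposited notes on mm10 with GENCODE M21. Which aligner was run is not given in the sources used here. Per the file headers, the authors' gene and transcript tables (RSEM format, from transcriptome alignments) hold expected counts, TPM, intervals of unstated level and each transcript's percent of its gene's TPM. The authors' second transcript table (kallisto format, from reads) holds estimated counts and TPM.

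TPM was used as deposited. Genes were called and counted by ratio only where both libraries together had 200 or more expected counts (ratios of Snhg15 and of single snoRNAs are also given below that), and a library under 3 counts was set at 3. Intervals are exact Clopper-Pearson at 95%, for counting error only. Counts were rounded for scaling with edgeR 4.0.16 (TMM, genes with at least 20 counts) and DESeq2 1.42.0 (size factors). Other alternatives were spike-in totals, TPM over nuclear protein-coding genes, the second table, other thresholds, filters and pseudocounts, and each replicate alone. Scripts ran on R 4.3.3 and Python 3.11.15, with scipy 1.17.1, Biopython 1.88, pandas 2.3.3, matplotlib 3.10.9 and numpy 2.4.6. The ratio rule was tested on simulated data.

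Members were named by the deposited transcript identifiers. Named besides were the 3 genes of highest mean TPM per list and any past 2-fold, the 5 snoRNA genes with the most counts and 1 per host, and transcripts with a mean share of at least 10% in either quantification; the transcripts shown for a contrast, the 6 lowered long noncoding RNAs and a few single features were chosen after their values were seen. A gene that this rule names is not reported here. The members and lists were chosen with earlier results of these data known. SnoRNA sequences are from GENCODE M21 transcripts and promoters from RefSeq on GRCm38.p6. No p-values are given, since there is 1 group.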

Additional observations from a re-analysis of the deposited data

How the results depend on the processing

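No host was past 2-fold under the second table, TMM, DESeq2, spike-in or protein-coding scaling, without a count filter, or with at least 1000 counts. With a threshold of 1.5-fold the count was 1, Snhg11. The median log2 ratio of the hosts was -0.09 and stayed within its counting error under every alternative, from -0.28 with spike-ins to 0.07 with the second table, where its sign changed. Against deposited TPM, DESeq2 size factors moved the median log2 ratio of all genes from -0.07 to 0.05. The summed level of 349 TPM became 614 with the second table, 816 with TPM rescaled over nuclear protein-coding genes, 833 with both, and 182 without Snhg11 (the last 2 chosen after seeing the data). With each replicate alone it was 304 to 394 TPM. The retained-intron share of 17.2% was 7.52% in expected counts and 23.9% without Snhg11, which alone holds most counts, and 16.6% to 17.7% with each replicate alone. The nonsense-mediated decay share of 4.13% was 1.60% in the second table. Gene levels moved beyond the replicate SD with the second table in all 9 hosts. Of 36 alternative values for the shares of leading transcripts, 15 moved beyond the replicate SD, as did 8 of 45 for the ratios beyond the counting interval. Ratios cannot be taken with 1 replicate left out. No paired analysis was possible because there is 1 group. Depth limits the 7 lower hosts, and the gene table cannot count snoRNAs of 99 bases or fewer.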

Other observations

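Snord50a and Snord50b, the 2 snoRNA genes of Snhg5, have identical sequences of 72 bases in the annotation. Each lies in an intron of 201 bases, 49 bases after the 5′ splice site and 80 before the 3′ splice site. Both are under the length that the gene table can count.

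TATA, searched after the printed sequences were seen and on the transcribed strand only, began 20 to 40 bases before the start in 5 of the 8 promoters (Gas5, Snhg1, Snhg5, Snhg8 and Snhg12) and in 5.81% of all 32851. The 2 matches of TATAAA are included in the 5.

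The 2 ACA-type snoRNA genes in the shared intron of Snhg11, Gm25187 and Gm25129, are 68.4% identical over an alignment of 136 positions. Gm25129 lies in no exon of Snhg11 and had 12 and 14 counts, and Gm25187, which lies in an exon of 1 Snhg11 transcript, had 0 in both libraries. Whether some reads of Gm25129 came from unspliced Snhg11 RNA was not tested. The host had 25094 and 18363 counts, so counts of Gm25129 were 0.0478% and 0.0762% of those of its host, whose leading transcript is 5864 bases long. Per length, the TPM of Gm25129 was 0.071 and 0.11 times that of Snhg11, and the TPM of Snora73b was 32.8 and 53.1 times that of Snhg3. Gm25129 and Snora73b have effective lengths of 34 and 106, and the part of length in this contrast was not tested.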
